A study of Mus musculus with 12 samples.

Results

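The mouse genes named Zfp and a number code for zinc-finger proteins, a large and mixed set that holds most of the KRAB-type repressors of the mouse genome. They were followed in macrophages derived from bone marrow in culture, by poly-A-enriched RNA sequencing. A gene was included when its symbol was Zfp and a number and its mean over the 12 libraries was 200 or more raw counts. Zfp36 was left out by rule; it codes for tristetraprolin, an RNA-binding protein. The rule gave 231 genes of 375 so named and of 55487 in the table, and all 231 passed the filter on low counts. The mean count therefore chose the genes and is given only as a description, from 202.25 to 15586 counts with a median of 820.33. The 3 genes just inside the limit were Zfp808 with a mean of 202.2 counts, Zfp759 with 208.7 and Zfp947 with 211.0. The 3 just outside were Zfp970 with 197.4, Zfp983 with 191.8 and Zfp775 with 187.8.

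There were 4 groups of 3 libraries. Macrophages homozygous for a targeted Fes allele (Fes-/-) received lipopolysaccharide (LPS) at 1 µg/mL for 4 hours or phosphate-buffered saline (PBS). Macrophages with the intact gene (Fes+/+, wild type, WT) received the same LPS dose and time or PBS. The PBS cells are described as untreated in the treatment protocol, all 12 libraries carry 1 batch date, and neither the age of the mice nor which libraries came from the same animal is given in the sources used here. LPS is a bacterial wall component sensed through TLR4, and FES is a non-receptor tyrosine kinase of myeloid and some other cells.

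In a C2H2 zinc finger, a pair of cysteines and a pair of histidines hold a zinc ion, and fingers in a row read DNA. Many of the proteins join such a row to a KRAB box, which recruits the corepressor TRIM28 and, through it, the histone methyltransferase SETDB1 and heterochromatin protein HP1, largely to silence retroviral elements. The genes lie in clusters that grew by duplication, and other members have no KRAB box and act in transcription, RNA binding, ribosome making or cell division.

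In coding translations of the GENCODE M21 annotation (GRCm38), 112 of the 231 genes held a KRAB-A-like box and 119 did not. At least 1 C2H2 pattern was found in 228, with a median of 10 and a maximum of 37 fingers. Genes with the box had a median of 12 patterns and genes without it a median of 8. The box was read as D, then V, I or L, any 3 residues, F, then S, T or P, any 2 residues, E and W. A KRAB box that departs from this pattern is missed, so genes without a match may still be KRAB-type. No C2H2 pattern was found in Zfp330, Zfp703 and Zfp839. All 231 were annotated as protein coding and lay on 20 chromosomes, with 54 on chromosome 7, 36 on chromosome 17, 18 on chromosome 13 and 16 on chromosome 8. In 37 genes, over 10% of the 75-base words of the transcripts also occurred in another gene, or over 10% of the exon length overlapped one, so that their counts are less certain.

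The promoters of 191 of the 231 genes were in the RefSeq promoter table (GRCm38.p6), which gives 250 bases before to 50 after an annotated start. The median GC content was 56.0% over 234 windows of these genes, against 52.7% over all 32851 windows. Promoters of 4 genes are shown as examples from the 10 largest rises (Zfp811, Zfp558 and Zfp281) and the 10 largest falls (Zfp367), picked after their values were seen. They are not the 4 largest changes. Capitals mark a match to 1 of 6 motifs searched on both strands. The Zfp811 window lies at chr17:32809882-32810181 on the minus strand and its capitals mark the YY1 motif AANATGGC. The Zfp558 window lies at chr9:18473596-18473895 on the minus strand and its capitals mark the ETS motif CCGGAAGT, which a second, overlapping window of the gene also holds. The Zfp281 window, at chr1:136624651-136624950 on the plus strand, and the first Zfp367 window, at chr13:64153150-64153449 on the minus strand, hold no match and so no capitals. The second Zfp367 window, at chr13:64152324-64152623 on the same strand, holds the CRE motif TGACGTCA in capitals.
Zfp811: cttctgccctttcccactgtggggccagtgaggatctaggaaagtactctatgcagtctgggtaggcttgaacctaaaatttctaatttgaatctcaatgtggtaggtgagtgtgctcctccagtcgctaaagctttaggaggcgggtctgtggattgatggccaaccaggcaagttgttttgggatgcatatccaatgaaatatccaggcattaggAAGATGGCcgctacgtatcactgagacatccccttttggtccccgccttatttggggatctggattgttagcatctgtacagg
Zfp558: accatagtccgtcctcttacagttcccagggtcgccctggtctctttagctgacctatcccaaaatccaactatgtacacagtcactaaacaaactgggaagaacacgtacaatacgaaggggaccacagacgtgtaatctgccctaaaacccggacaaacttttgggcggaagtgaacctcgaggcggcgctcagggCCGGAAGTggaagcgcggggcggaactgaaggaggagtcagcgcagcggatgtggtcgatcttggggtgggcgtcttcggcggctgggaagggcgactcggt
Zfp281: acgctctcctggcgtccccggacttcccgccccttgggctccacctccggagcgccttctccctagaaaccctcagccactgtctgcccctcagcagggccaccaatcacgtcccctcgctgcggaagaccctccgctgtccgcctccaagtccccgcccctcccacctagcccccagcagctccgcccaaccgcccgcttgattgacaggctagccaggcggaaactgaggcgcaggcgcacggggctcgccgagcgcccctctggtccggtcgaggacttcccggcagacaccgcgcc
Zfp367, first window: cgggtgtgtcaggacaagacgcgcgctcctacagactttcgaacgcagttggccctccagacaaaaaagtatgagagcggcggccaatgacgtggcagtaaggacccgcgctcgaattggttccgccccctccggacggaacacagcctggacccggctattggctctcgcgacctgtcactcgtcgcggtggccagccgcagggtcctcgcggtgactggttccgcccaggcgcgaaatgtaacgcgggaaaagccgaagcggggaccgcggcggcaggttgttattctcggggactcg
Zfp367, second window: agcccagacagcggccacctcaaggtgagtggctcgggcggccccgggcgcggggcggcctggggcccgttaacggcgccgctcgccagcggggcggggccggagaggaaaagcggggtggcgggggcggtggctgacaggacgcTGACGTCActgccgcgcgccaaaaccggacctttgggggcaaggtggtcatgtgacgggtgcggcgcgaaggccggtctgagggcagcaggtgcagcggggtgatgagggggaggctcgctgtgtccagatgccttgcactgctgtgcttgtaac

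The YY1 motif was in 12.8% of the windows of zinc-finger genes and in 6.05% of all windows. The ETS motif was in 12% and 3.89%. The CRE motif was in 3.42% and 1.79%. The AP-1 motif TGANTCA was in 3.42% and 7.81%, the interferon response motif (TTTC, any 2 bases, TTTC) in 1.71% and 3.44%, and the kappaB motif (GGGA, any base, TTTCC) in 0.855% and 0.411%. Among the genes called higher under LPS in both genotypes, 1 of 39 windows held the kappaB motif and 0 of 39 the AP-1 or the CRE motif. A match is a description of letters, and no match says only that these letters are not in the window. The YY1 and ETS motifs were added after the windows had been examined.

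The libraries held 61016254 to 101027166 counts each, and replicates of a group correlated at r = 0.985 to 0.997 over 9495 genes. Fes itself checks the labels. In CPM (counts scaled to library size) after TMM scaling, Fes had 35.1, 33.5 and 32.9 in Fes-/- LPS libraries, against 152, 163 and 171 in WT LPS libraries. It had 68.9, 66.4 and 70.5 CPM in Fes-/- PBS libraries, against 169, 189 and 179 in WT PBS libraries. The 6 Fes-/- libraries were all below the 6 WT libraries, and transcript remained in each. All 7 of 7 genes taken as a check of LPS induction were higher under LPS in both genotypes. All 8 macrophage markers were detected, and they summed to 17200 to 21200 TPM (a level per transcript length) in Fes-/- LPS and 28900 to 37500 TPM in Fes-/- PBS libraries, and to 18400 to 22500 TPM in WT LPS and 32400 to 39400 TPM in WT PBS libraries. TPM carries no TMM factor, and Lyz2 alone had 9710 to 13300 TPM in Fes-/- LPS and 20200 to 28300 TPM in Fes-/- PBS libraries. After TMM, edgeR called 4 of the 8 markers higher under LPS in each genotype. It called 1 lower in Fes-/- and 2 lower in WT cells. Of all tested genes, 34.3% were higher and 38.9% lower in Fes-/- and 34.6% and 38.8% in WT cells. Dendritic cell markers summed to 2.74 to 2.95 TPM in Fes-/- LPS and 0.513 to 0.909 TPM in Fes-/- PBS libraries, and to 1.45 to 2.42 TPM in WT LPS and 0.69 to 1.06 TPM in WT PBS libraries. Ccr7 made up most of the LPS sums, with 2.03 to 2.46 TPM in Fes-/- LPS and 0.0757 to 0.19 TPM in Fes-/- PBS libraries. It had 1.11 to 1.83 TPM in WT LPS and 0.208 to 0.249 TPM in WT PBS libraries. By edgeR after TMM, 2 of the 5 markers were called higher and 0 lower in each genotype. The neutrophil sum was 14.2 to 20.5 TPM in Fes-/- LPS and 23.2 to 30.3 TPM in Fes-/- PBS libraries, and 17.4 to 28.0 TPM in WT LPS and 32.9 to 45.0 TPM in WT PBS libraries, with Ly6g at 0 in every group but Fes-/- PBS. The part of these marker differences in the LPS results was not tested. T cell markers summed to at most 0.125 TPM, and Cd3e, Cd3d and Cd3g were all at 0 in WT.

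The first comparison was the response to LPS. Most zinc-finger genes fell in both genotypes, a few rose strongly, and the calls were shared by Fes-/- and WT macrophages for all but a few genes. In Fes-/- cells, edgeR's quasi-likelihood test called 167 of 231 genes lower (72.3%) and 37 higher (16.0%) under LPS, with adjusted p under 0.05, and left 27 uncalled. Over all tested genes it called 38.9% lower and 34.3% higher, and over tested genes with a mean of 200 or more counts 40.4% lower and 40.2% higher. In WT cells it called 166 lower (71.9%) and 37 higher (16.0%) and left 28 uncalled, against 38.8% lower and 34.6% higher over all tested genes and 40.9% lower and 39.9% higher at 200 or more counts. The median log2 change of the 231 genes was -0.74 in Fes-/- and -0.77 in WT cells, and the median of all genes at 200 or more counts was -0.00 and -0.01. A called fall of 2-fold or more was measured in 95 of the 231 genes in Fes-/- cells and 92 in WT cells, and such a rise in 14 in each. Of all 15801 tested genes, 3805 fell and 3067 rose that much in Fes-/- cells, and 3811 and 3128 in WT cells. Of the 10332 at 200 or more counts, 2048 fell and 1927 rose in Fes-/- cells, and 2099 and 1928 in WT cells. In bulk RNA, less RNA per cell and fewer expressing cells cannot be told apart.

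The direction of small LPS changes depended on the scaling. The TMM factors were 0.71 to 0.74 in LPS libraries and 1.35 to 1.40 in PBS libraries. Without such factors, the median of all genes with 200 or more counts was -0.94 in Fes-/- and -0.93 in WT cells on the log2 scale, and the calls became 210 lower and 11 higher in Fes-/- cells and 208 lower and 12 higher in WT cells. The shift of all genes is part of these counts. The matching share of all tested genes was not counted without factors, so they are no result about the zinc-finger genes alone. Relative to the median of those genes, the zinc-finger genes lay at -0.74 with TMM and -0.74 without factors in Fes-/- cells, and at -0.76 and -0.76 in WT cells. A factor per library moves all genes by nearly the same amount. The agreement of these distances was thus fixed in advance and is no check of the fall. In log2(TPM + 1) the same distance was -0.53 in Fes-/- and -0.59 in WT cells. Across 6 fits, which were edgeR with TMM, with RLE factors and with none, limma-trend on log2(TPM + 1) and on log2(TPM + 0.1), and DESeq2, 159 genes were called lower in both genotypes in every one and 11 higher. The 11 were Zfp811, Zfp800, Zfp558, Zfp281, Zfp719, Zfp513, Zfp263, Zfp319, Zfp691, Zfp456 and Zfp324. Calls made in all 6 fits were not counted over all tested genes.

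**Figure D1:**
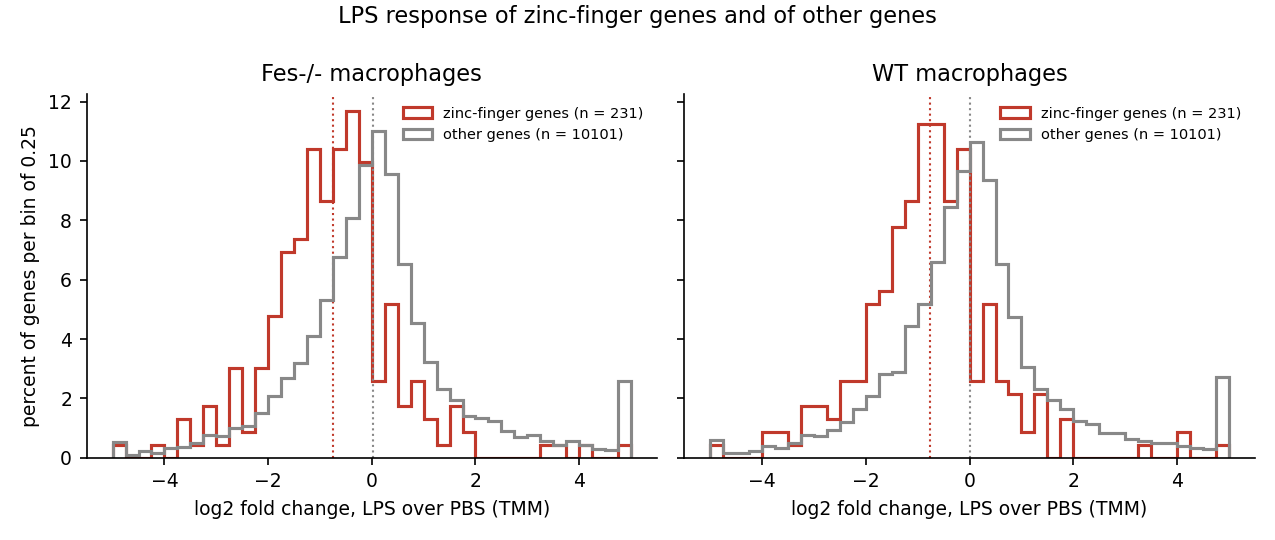
Share of genes, in percent, per bin of log2 fold change of LPS over PBS, in Fes-/- (left) and WT macrophages (right), for the 231 zinc-finger genes (red) and the 10101 other genes with a mean of 200 or more counts (grey). Dotted lines mark the medians, which for the zinc-finger genes are -0.74 and -0.77, and changes beyond 5 in either direction are drawn in the end bins.

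The summed share of these genes in the library fell with LPS. They took 0.304% ± 0.0018 of all counts in Fes-/- LPS libraries, against 0.642% ± 0.016 in Fes-/- PBS libraries (SD, n = 3 each). They took 0.303% ± 0.0061 in WT LPS libraries, against 0.646% ± 0.027 in WT PBS libraries (SD, n = 3 each). The groups did not overlap, and this share carries no TMM factor, so the shift of all genes described above is part of it. The median gene had 7.08 CPM in Fes-/- LPS and 12.4 CPM in Fes-/- PBS libraries, and 7.19 CPM in WT LPS and 12.7 CPM in WT PBS libraries, after TMM.

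Of the rises, Zfp811 stood apart. It codes for a KRAB-type protein with 14 fingers and lies at chr17:32795676-32809931. Zfp811 had 42.3, 52.5 and 41.1 CPM in Fes-/- LPS libraries, against 0.0811, 0.122 and 0.176 CPM in Fes-/- PBS libraries. It had 35.3, 33.1 and 36.5 CPM in WT LPS libraries, against 0.174, 0.184 and 0.201 CPM in WT PBS libraries. It was close to absent under PBS, with 7, 12 and 15 counts in the Fes-/- libraries, and so met the mean count limit through its LPS libraries. The LPS and PBS groups were far apart in both genotypes. The log2 change was 8.47 ± 0.18 (SE), or 355-fold, in Fes-/- cells (adjusted p = 2.15e-14, edgeR) and 7.54 ± 0.17, or 186-fold, in WT cells (adjusted p = 3.21e-14). None of its 75-base words was found in another gene, and its promoter window, printed above, holds a YY1 motif.

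Zfp800, needed for pancreas development in mouse, was the next. It had 307, 336 and 305 CPM in Fes-/- LPS libraries, against 19.1, 19.7 and 17.1 CPM in Fes-/- PBS libraries. It had 295, 336 and 314 CPM in WT LPS libraries, against 17.6, 16.7 and 16.9 CPM in WT PBS libraries. All LPS libraries lay far above all PBS libraries, with log2 changes of 4.08 ± 0.09 (SE) in Fes-/- cells (adjusted p = 2.72e-14, edgeR) and 4.20 ± 0.09 in WT cells (adjusted p = 2.12e-14). Zfp558, a KRAB-type gene, had 11.6, 11.5 and 12.7 CPM in Fes-/- LPS libraries, against 1.10, 1.02 and 0.773 CPM in Fes-/- PBS libraries. It had 9.74, 14.0 and 14.5 CPM in WT LPS libraries, against 0.899, 0.806 and 0.669 CPM in WT PBS libraries. The treatment groups again did not overlap, and Zfp558 rose by 3.63 ± 0.18 (log2, SE) in Fes-/- cells (adjusted p = 1.2e-10) and 4.00 ± 0.19 in WT cells (adjusted p = 5.23e-11).

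Zfp281 codes for a repressor of pluripotency genes in mouse embryonic stem cells. It had 210, 210 and 219 CPM in Fes-/- LPS libraries, against 22.7, 23.4 and 18.5 CPM in Fes-/- PBS libraries. It had 198, 241 and 207 CPM in WT LPS libraries, against 22.4, 21.3 and 19.5 CPM in WT PBS libraries. Every LPS library was above every PBS library, and the log2 change was 3.30 ± 0.11 (SE) in Fes-/- cells (adjusted p = 9.84e-13, edgeR) and 3.35 ± 0.11 in WT cells (adjusted p = 8.5e-13). Zfp148, which codes for its close relative, had log2 changes of -0.20 ± 0.08 in Fes-/- cells, a call that DESeq2 did not make, and -0.32 ± 0.08 in WT cells.

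The other large rises were smaller. Zfp513, which regulates photoreceptor genes, had 88.2, 91.2 and 90.3 CPM in Fes-/- LPS libraries and 23.5, 24.1 and 25 CPM in Fes-/- PBS libraries, and its log2 change was 1.89 in Fes-/- and 1.83 in WT cells. Zfp719, a KRAB-type gene, changed by 1.80 in Fes-/- and 1.98 in WT cells. Zfp263, whose human counterpart is a DNA-binding repressor, had 195, 180 and 174 CPM in Fes-/- LPS libraries and 63.6, 50.0 and 54.1 CPM in Fes-/- PBS libraries, a log2 change of 1.71, with 1.76 in WT cells. The LPS libraries of each were all above its PBS libraries. Zfp324 changed by 1.55 and 1.36 on the log2 scale in Fes-/- and WT cells, Zfp319 by 1.55 and 1.48, and Zfp691 by 1.32 and 1.44. Zfp456 changed by 1.53 and 1.37, but 60.8% of its 75-base words also occur in the antisense gene Gm17039, so its reads cannot be assigned with certainty. All of these had an adjusted p below 2e-07 in both genotypes.

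The largest fall was that of Zfp395, whose human counterpart is a hypoxia-induced factor that activates chemokine genes. It had 0.340, 0.494 and 0.359 CPM in Fes-/- LPS libraries, against 61.2, 62.5 and 70.1 CPM in Fes-/- PBS libraries. It had 0.311, 0.321 and 0.705 CPM in WT LPS libraries, against 74.1, 92.3 and 65.0 CPM in WT PBS libraries. The transcript was near absent in every LPS library and abundant in every PBS library. It fell by 7.35 ± 0.22 (log2, SE), or 163-fold, in Fes-/- cells (adjusted p = 2.45e-12, edgeR) and by 7.42 ± 0.23, or 171-fold, in WT cells (adjusted p = 2.42e-12). Zfp704, which codes for a relative of the same protein family, fell too, to 4.07, 3.97 and 5.05 CPM in Fes-/- LPS libraries, against 50.2, 44.8 and 51.3 CPM in Fes-/- PBS libraries. Its log2 change was -3.49 in Fes-/- and -3.67 in WT cells, with 16.6% of its exons under another gene.

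Zfp41 had 1.27, 0.989 and 1.23 CPM in Fes-/- LPS libraries, against 24.7, 18.4 and 21.8 CPM in Fes-/- PBS libraries. It had 1.20, 1.30 and 1.60 CPM in WT LPS libraries, against 21.4, 22.4 and 20.0 CPM in WT PBS libraries. The treatment groups did not overlap, and the log2 change was -4.21 ± 0.15 (SE) in Fes-/- cells (adjusted p = 2.65e-12, edgeR) and -3.95 ± 0.15 in WT cells (adjusted p = 5.11e-12). Zfp652, whose human counterpart represses transcription with CBFA2T3, had 4.36, 4.17 and 5.90 CPM in Fes-/- LPS libraries, against 62.0, 63.0 and 67.2 CPM in Fes-/- PBS libraries. Its log2 change was -3.75 in Fes-/- and -3.86 in WT cells, and 18.9% of its exon length is overlapped by Abi3 on the opposite strand. Zfp367, described as an activator of erythroid genes, had 2.84, 3.27 and 3.04 CPM in Fes-/- LPS libraries, against 38.8, 33.6 and 39.9 CPM in Fes-/- PBS libraries, with log2 changes of -3.62 in Fes-/- and -3.56 in WT cells.

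Zfp808, Zfp760, Zfp316, Zfp362 and Zfp398 completed the 10 largest falls. Their log2 changes were -3.52, -3.13, -3.09, -3.07 and -3.03 in Fes-/- cells and -3.13, -3.39, -3.13, -3.01 and -3.05 in WT cells, in that order, each with an adjusted p below 3e-08. Zfp808, Zfp760, Zfp316 and Zfp398 code for KRAB-type proteins, and 16.4% of the 75-base words of Zfp808 also occur in Zfp934.

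**Figure D2:**
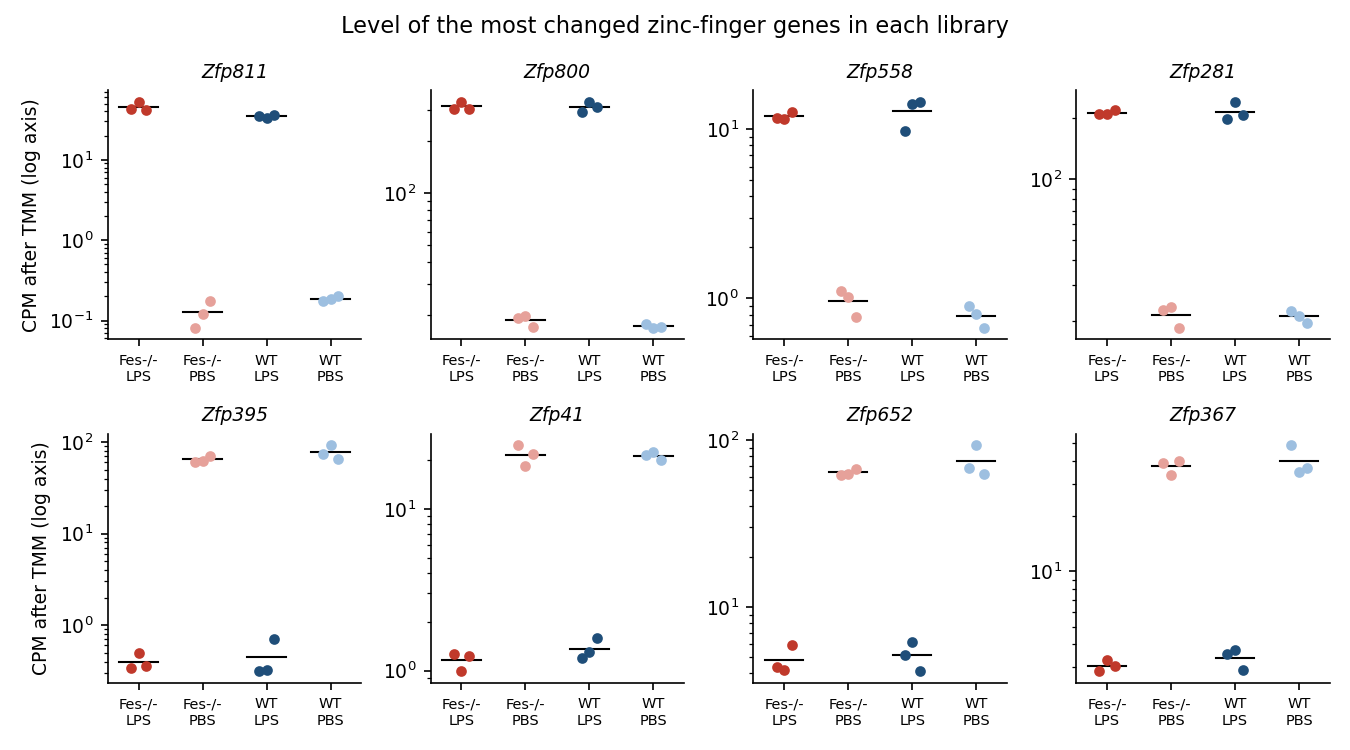
CPM after TMM on a log axis in each library for Zfp811, Zfp800, Zfp558 and Zfp281 (top) and Zfp395, Zfp41, Zfp652 and Zfp367 (bottom), in the groups Fes-/- LPS, Fes-/- PBS, WT LPS and WT PBS. Points are libraries and bars are means of 3, and in each panel all 6 LPS libraries lie on one side of all 6 PBS libraries.

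The response was nearly the same in the 2 genotypes. Of the genes called lower, 163 were called in both, 97.6% of those in Fes-/- and 98.2% of those in WT cells. Of the genes called higher, 34 were called in both, 91.9% of each list, and 21 genes were called in neither. In 228 of 231 genes the changes had the same sign, the median absolute difference between them was 0.11, and the largest was 0.93, in Zfp811. Across the 231 genes the 2 sets of log2 changes had r = 0.992, given as a description, since genes share the libraries. No gene was called in opposite directions. Of all 15801 tested genes, edgeR called only 3 (0.019%) for a difference of LPS effects. The overlap, signs and r were not computed over all genes, so a shared response is not shown to be particular to the zinc-finger genes.

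**Figure D3:**
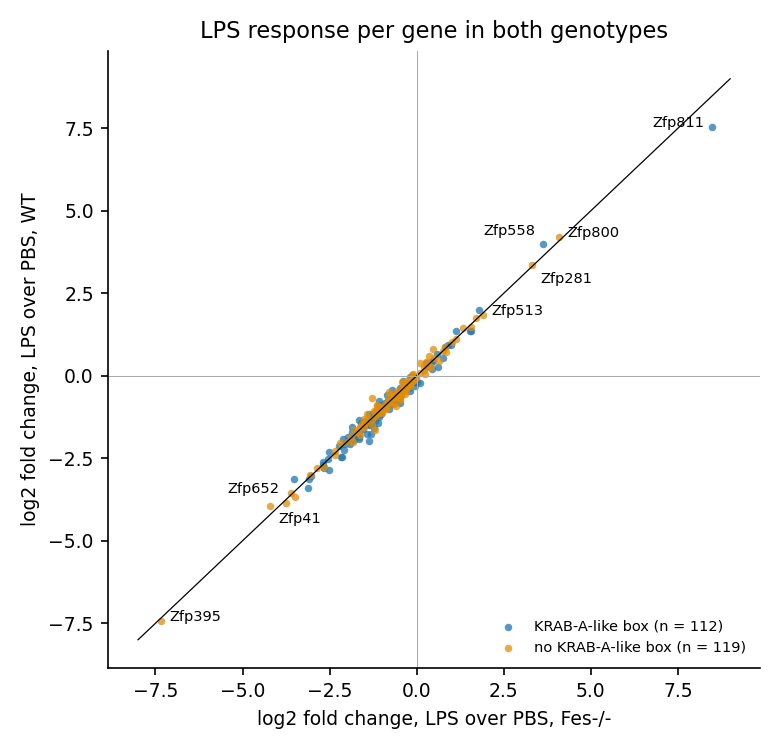
Log2 fold change of LPS over PBS in Fes-/- (horizontal) against WT macrophages (vertical) for 231 zinc-finger genes, coloured by whether a KRAB-A-like box was found (112 genes) or not (119). The line marks equal change, and points lie close to it (r = 0.992).

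Genes were then grouped by whether the KRAB-A-like pattern was found. Of 112 genes with a KRAB-A-like box, 85 were lower (75.9%) and 16 higher (14.3%) in Fes-/- cells. In WT cells 87 were lower (77.7%) and 15 higher (13.4%), and the median log2 changes were -0.87 in Fes-/- and -0.85 in WT cells. Of 119 without a match, 82 were lower (68.9%) and 21 higher (17.6%) in Fes-/- cells and 79 lower (66.4%) and 22 higher (18.5%) in WT cells. Their medians were -0.54 and -0.61. Over all tested genes, 38.9% were lower and 34.3% higher in Fes-/- and 38.8% and 34.6% in WT cells. The difference between the classes was not tested. The number of C2H2 patterns had r = -0.01 and a rank correlation of -0.09 with the WT change across 231 genes. Median changes were -0.51, -0.72 and -0.81 in Fes-/- cells for 0 to 6, 7 to 12 and 13 or more patterns. In WT cells they were -0.59, -0.77 and -0.86, and these groups were not tested either. The log2 mean TPM, which includes the LPS libraries, had r = 0.30 with the change in each genotype. Of the 115 genes under the median mean count, 83.5% were lower and 8.7% higher in each genotype. Of the 116 at or over it, 61.2% were lower in Fes-/- and 60.3% in WT cells, and 23.3% were higher in each. The part of expression level in the class medians was not tested.

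KRAB-type genes known for silencing retroviral elements or keeping imprints gave 5 members. In Fes-/- cells 4 were lower and 1 higher, and in WT cells 3 were lower and 0 higher. Over all tested genes, 38.9% were lower and 34.3% higher in Fes-/- and 38.8% and 34.6% in WT cells, and 5 genes are few for such a comparison. Zfp809, which silences murine leukaemia virus at its primer-binding site, had 5.80, 5.28 and 5.01 CPM in Fes-/- LPS libraries, against 12.6, 13.7 and 11.6 CPM in Fes-/- PBS libraries. Its log2 change was -1.23 in Fes-/- and -1.59 in WT cells. Zfp932, a repressor of endogenous retroviruses, changed by -1.42 and -1.76, but 26.4% of its 75-base words also occur in Gm15446. Zfp445, which maintains imprints, changed by -0.22 and -0.36, and in Fes-/- cells its call was lost without Fes-/- LPS replicate 3 (adjusted p = 0.0788) or Fes-/- PBS replicate 1 (0.202) or 2 (0.0502), by DESeq2 (0.0769) and with RLE factors (0.0715). Zfp568, a repressor of the placental Igf2 promoter, changed by -0.39 in Fes-/- cells and was not called in WT cells (-0.17, adjusted p = 0.192), where it was called without factors (-1.08, adjusted p = 3.9e-07). Its Fes-/- call was lost without Fes-/- PBS replicate 2 (adjusted p = 0.0671). Zfp961 changed by 0.62 in Fes-/- cells (adjusted p = 0.000319) and by 0.27 in WT cells, where it was not called (adjusted p = 0.0616). It was called in WT cells by DESeq2 (adjusted p = 0.022), with RLE factors (0.0299), with the filter set at 1 CPM in 3 or more libraries (0.0479) and without WT LPS replicate 2 (0.00448). Without TMM factors its change was -0.32 in Fes-/- and -0.64 in WT cells.

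Genes listed for a described part in transcription or chromatin gave 18 members. Of these, 9 were lower (50.0%) and 4 higher (22.2%) in Fes-/- cells and 9 lower (50.0%) and 5 higher (27.8%) in WT cells. Over all tested genes the shares were 38.9% and 34.3% in Fes-/- and 38.8% and 34.6% in WT cells. Zfp131, a BTB-domain protein, had 30.3, 30.8 and 33.2 CPM in Fes-/- LPS libraries, against 18.5, 18.7 and 16.2 CPM in Fes-/- PBS libraries. It rose by 0.82 (log2) in Fes-/- and 0.88 in WT cells, and without TMM factors its change was -0.12 and -0.03. Zfp143, which binds promoters and chromatin loop anchors, rose by 0.65 in Fes-/- and 0.46 in WT cells, and its change was -0.29 and -0.45 without factors. Zfp609, a partner of the cohesin loader Nipbl, changed by 0.08 in Fes-/- cells and rose by 0.39 in WT cells (adjusted p = 0.018), a call lost without WT LPS replicate 2 (adjusted p = 0.093) or WT PBS replicate 3 (0.076) and turned to -0.53 without factors. Zfp64, an activator of the MLL promoter in human leukaemia, fell by 1.13 in Fes-/- and 0.93 in WT cells, and Zfp292 fell by 0.79 and 0.49. Zfp608 fell by 1.27 in Fes-/- and 0.68 in WT cells, Zfp219 by 0.82 and 0.78, Zfp644 by 0.72 and 0.58, and Zfp687, a partner of Zmynd8, by 0.35 and 0.43. Zfp592, which codes for another partner of Zmynd8, changed by -0.12 and 0.06 and was not called, but without factors it was called lower, at -1.05 and -0.86. Zfp410, an activator of Chd4, changed by -0.17 and -0.12, Zfp384 by -0.08 and -0.10 and Zfp335 by -0.05 and -0.05, none of them called. Without factors all 3 were called lower in both genotypes, at -1.11 and -1.04, -1.01 and -1.01, and -0.99 and -0.96, in that order. The Fes-/- call of Zfp148 (adjusted p = 0.0345) was lost in 6 of 12 fits without 1 library. Those were without Fes-/- LPS replicate 1 (adjusted p = 0.134) or 2 (0.0721), Fes-/- PBS replicate 1 (0.122) or 2 (0.195), and WT PBS replicate 1 (0.0627) or 3 (0.0503). It was also lost by DESeq2 (0.139), with RLE factors (0.121) and in a fit of the Fes-/- libraries alone (0.0501). The Fes-/- call of Zfp516, an activator of brown-fat genes (-0.31, adjusted p = 0.00875), was lost without Fes-/- PBS replicate 1 (adjusted p = 0.0585).

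Of 3 members that act on ribosomes, 1 was lower and 1 higher in each genotype, and of 4 that bind RNA or act in splicing or ubiquitin transfer, 2 were lower and 1 higher. The shares over all tested genes were 38.9% lower and 34.3% higher in Fes-/- and 38.8% and 34.6% in WT cells. Sets of 3 and 4 genes are too few to set against them. Zfp598, a ubiquitin ligase that senses collided ribosomes, changed by -0.37 in Fes-/- and -0.20 in WT cells, and its WT call was lost without WT LPS replicate 2 (adjusted p = 0.0882) or WT PBS replicate 2 (0.0557) or 3 (0.057), and with RLE factors (0.0588). Zfp622, of large ribosomal subunit maturation, changed by -0.01 and -0.06 and was not called, but without factors it was called lower, at -0.95 and -0.97. Zfp593 changed by 0.34 and 0.61, but 77.9% of its exon length is overlapped by E130218I03Rik, and its Fes-/- call (adjusted p = 0.0462) was lost without Fes-/- LPS replicate 1 (0.162) or 2 (0.0866), Fes-/- PBS replicate 1 (0.0589) or 3 (0.117), or WT LPS replicate 1 (0.052), and with no filter (0.084). Zfp207, a spindle-assembly and Bub3-binding protein, rose by 0.49 and 0.55, and its change was -0.45 and -0.36 without factors. Zfp346, a double-stranded RNA binder, fell by 0.64 and 0.86. Zfp830, a splicing factor, changed by -0.20 and -0.24, with adjusted p = 0.103 and 0.0581, and in WT cells it was called with the replicate number as a block (adjusted p = 0.0409), without WT LPS replicate 3 (0.0402) or WT PBS replicate 2 (0.0287), and with no filter (0.0297). Without factors Zfp830 was called lower in both genotypes, at -1.14 and -1.15.

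Levels between genes are given per length, as mean TPM over the 12 libraries. Zfp710 had 97.1 TPM and Zfp207 96.2 TPM, followed by Zfp800 with 87.9, Zfp263 with 78.1, Zfp106 with 74.7, Zfp513 with 66.4, Zfp281 with 62.7, Zfp703 with 51.5, Zfp706 with 43.9 and Zfp217 with 42.4 TPM. Of these 10, only Zfp800, Zfp263, Zfp513 and Zfp281 rose by 2-fold or more under LPS, and Zfp703 fell by more than 2-fold (log2 -1.19 in Fes-/- and -1.64 in WT cells). Zfp710 rose by 0.27 and 0.40, and its change was -0.67 and -0.51 without factors. Zfp106, an RNA-binding protein, fell by 0.46 and 0.59, with 26.1% of its exons overlapped by Gm26899. Zfp706 fell by 0.42 and 0.39 and Zfp217, a CoREST-associated repressor, by 0.33 and 0.56.

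Neighbouring genes were grouped in 12 clusters of at least 4 genes whose starts lay at most 500 kb apart, which held 93 genes. At chr7:127233061-127885996, all 9 of 9 genes were lower in both genotypes, with log2 changes from -2.68 to -0.68 in Fes-/- cells. At chr7:27731389-28014115, all 5 genes were lower in both genotypes too. At chr7:24081924-24301232, 3 of 4 genes were lower and 1 was uncalled in each genotype, with changes from -2.85 to -0.095 in Fes-/- cells. Of all 231 genes, 72.3% were lower in Fes-/- and 71.9% in WT cells, against 38.9% and 38.8% of all tested genes. At chr17:32765496-33631779, which holds Zfp811, 8 of 11 genes were lower and 2 higher in both genotypes. Zfp799, the neighbour of Zfp811, had 4.70, 5.49 and 4.82 CPM in Fes-/- LPS libraries and 9.65, 8.24 and 8.10 CPM in Fes-/- PBS libraries, with log2 changes of -0.79 in Fes-/- and -1.01 in WT cells. The other riser there, Zfp952, changed by 0.74 and 0.53. The largest cluster, at chr17:21008903-23564238, had 20 genes, of which 15 were lower and 3 higher in Fes-/- cells and 16 lower and 3 higher in WT cells. Zfp719 and its neighbour Zfp658, at chr7:43579610-43593235 and chr7:43562256-43575461, both rose, the second by 1.12 in Fes-/- and 1.35 in WT cells. Zfp658, Zfp799 and Zfp952 were chosen for naming after their values were seen.

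**Figure D4:**
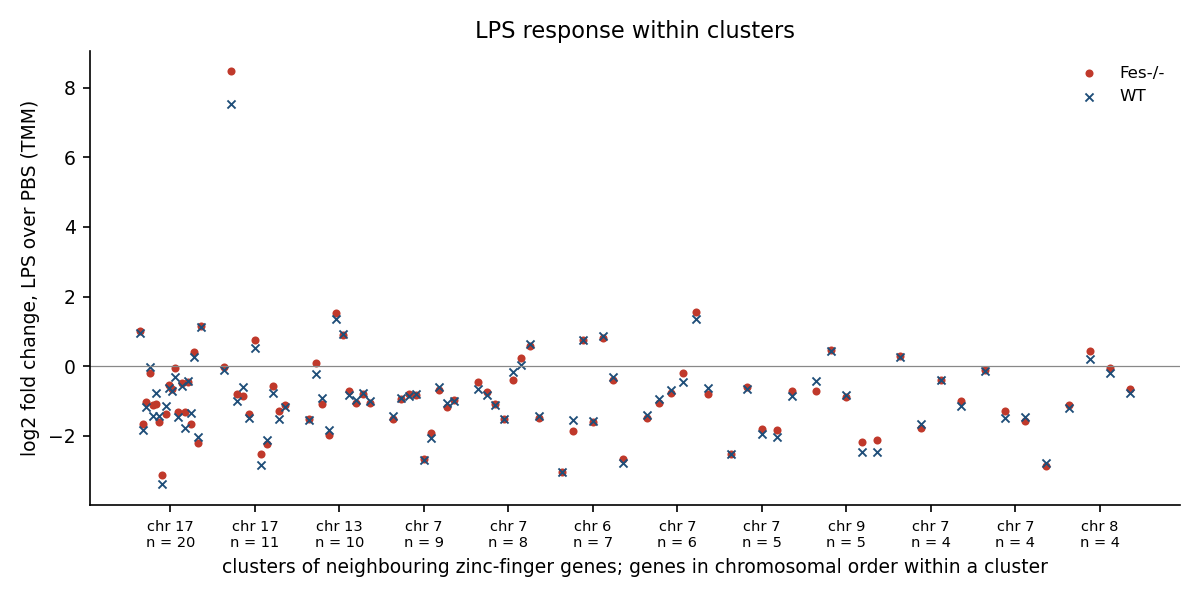
Log2 fold change of LPS over PBS in Fes-/- (dots) and WT cells (crosses) for genes of the 12 clusters, ordered by number of genes and in chromosomal order within a cluster. All genes of the chromosome 7 clusters of 9 and of 5 genes, and of 1 chromosome 7 cluster of 4, lie below 0. Zfp811 lies far above its neighbours on chromosome 17.

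Of the 34 tested partners of KRAB proteins, 20 were lower and 10 higher under LPS in both genotypes, against 38.9% and 34.3% of all tested genes in Fes-/- cells. Setdb1, the H3K9 methyltransferase, had 27.8, 27.5 and 25.4 CPM in Fes-/- LPS libraries, against 79.2, 76.9 and 77.1 CPM in Fes-/- PBS libraries. Its log2 change was -1.53 in Fes-/- and -1.51 in WT cells. Cbx5, which codes for HP1 alpha, fell by 1.57 and 1.79, and Hdac1 rose by 1.71 and 1.66. Morc3, a chromatin ATPase, rose by 1.55 and 1.60. Trim28, chosen after its values were seen, fell by 0.76 and 0.79.

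The second comparison was between genotypes. Under LPS, 0 of 231 genes were called higher or lower in Fes-/- against WT cells by edgeR or DESeq2, against 0.108% of all tested genes called by edgeR. At an unadjusted p under 0.05 there were 8 higher and 11 lower, or 8.23%, against 6.52% of all tested genes. Under PBS 0 were called by either tool, against 0.0823% of all tested genes, with 1 higher and 5 lower at an unadjusted p under 0.05 (2.60% against 3.83%). For the difference of LPS effects 0 were called by either tool, against 0.019%, with 5 higher and 2 lower (3.03% against 2.94%). The 95% interval of the difference lay within 2-fold in 230 of 231 genes under LPS and 230 under PBS. For the difference of LPS effects it did so in 227. These were 99.6%, 99.6% and 98.3%, against 97.0%, 96.8% and 94.0% of all tested genes that met the same mean count limit. Such intervals were therefore common among genes of that count and not particular to the zinc-finger genes. A p that misses the threshold does not show that the genotypes act alike. With no filter on low counts, 2 genes, Zfp703 and Zfp811, were called higher under LPS.

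Zfp703, which codes for a corepressor that binds TLE proteins and holds no C2H2 pattern, had the smallest p under LPS. It had 25.3, 32.9 and 23.0 CPM in Fes-/- LPS libraries, against 18.0, 20.9 and 21.4 CPM in WT LPS libraries. The groups did not overlap, with a log2 difference of 0.43 ± 0.12 (SE), a 95% interval of 0.18 to 0.68 and adjusted p = 0.531 by edgeR. Under PBS its log2 difference was -0.02. Zfp811 had 42.3, 52.5 and 41.1 CPM in Fes-/- LPS libraries, against 35.3, 33.1 and 36.5 CPM in WT LPS libraries, and these also did not overlap. Its log2 difference was 0.37 ± 0.11 under LPS (adjusted p = 0.615) and -0.56 ± 0.28 under PBS (adjusted p = 0.975), so that the LPS effect was larger in Fes-/- cells by 0.93 ± 0.30 (adjusted p = 1, edgeR).

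Zfp598, Zfp282 and Zfp52 followed under LPS, with log2 differences of -0.24, -0.28 and -0.36 and adjusted p of 0.615 to 0.696. Zfp282, whose human counterpart HUB1 binds a retroviral repressor element, had 6.93, 6.39 and 7.21 CPM in Fes-/- LPS libraries, against 8.54, 8.10 and 8.27 CPM in WT LPS libraries, without overlap. Under PBS the 5 smallest p belonged to Zfp943, Zfp608, Zfp189, Zfp219 and Zfp984, with log2 differences of -0.28, 0.41, -0.30, -0.25 and -0.19 and an adjusted p of 0.975 each. Reads of Zfp984 are uncertain, since 40.9% of its 75-base words also occur in Gm13212. Zfp608 had 13.9, 18.3 and 11.8 CPM in Fes-/- PBS libraries, against 12.6, 9.97 and 10.6 CPM in WT PBS libraries, and the groups overlapped. For the difference of LPS effects, Zfp608, Zfp703, Zfp282 and Zfp422 followed Zfp811, at -0.59, 0.45, -0.30 and 0.31.

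Genes near Fes on chromosome 7 were examined because a targeted allele carries flanking sequence. Zfp710 begins 0.35 Mb before Fes and Zfp592 0.62 Mb after its start, and Zfp143 29.68 Mb after it. Under LPS their log2 differences were -0.04, -0.26 and 0.03, with 95% intervals of -0.22 to 0.14, -0.50 to -0.03 and -0.15 to 0.21. Under PBS they were 0.10, -0.09 and -0.15, and none was called.

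**Figure D5:**
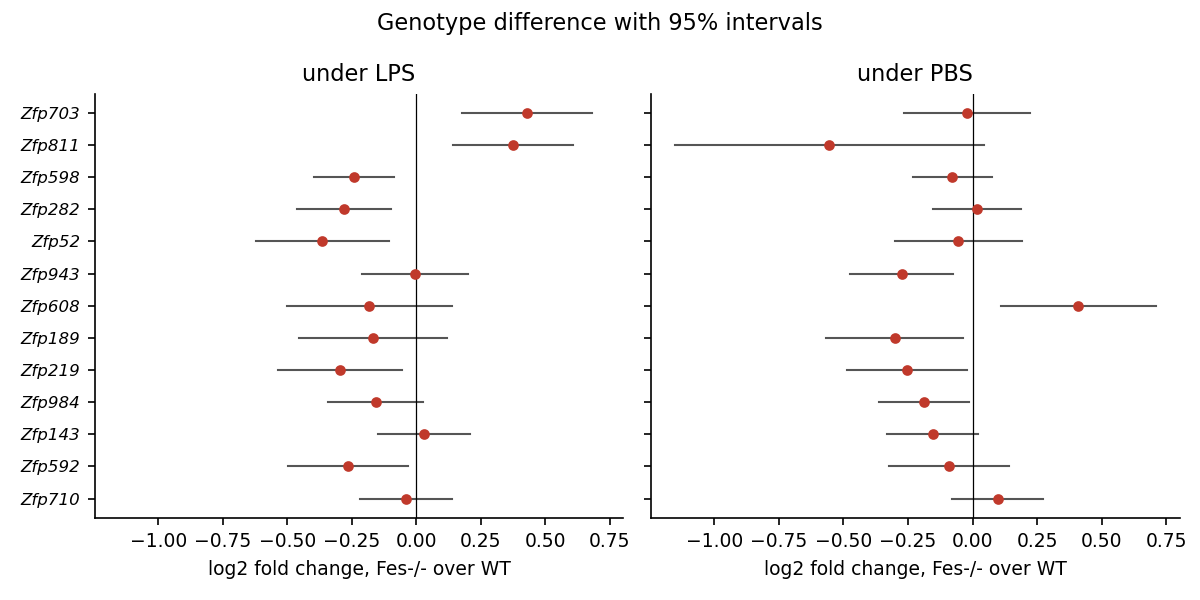
Log2 fold change of Fes-/- over WT with its 95% interval under LPS (left) and PBS (right), for the genes with the smallest p and for Zfp143, Zfp592 and Zfp710, within 30 Mb of Fes. Points lie between -0.56 and 0.43, and intervals that leave 0 out did not reach an adjusted p under 0.05.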

How the data were processed

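RNA of bone-marrow-derived macrophages was sequenced after poly-A enrichment, per the labels' protocols, in 4 groups of 3 libraries, and replicates are labelled as biological. The deposited table of the authors gives raw counts and TPM per gene and library, and read alignment used STAR 2.7.8a, with Picard 2.9.0, R 4.1.12 and DESeq2 1.34.0 also listed, per the submitters' processing notes. Those notes name the builds GRCm38 and mm9 without roles. Gene lengths implied by the deposited counts and TPM matched GENCODE M21 (GRCm38) within 1% in 10160 of 10308 genes. Whether counting used strand is not stated in the labels or headers.

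Counts were tested with edgeR 4.0.16 (R 4.3.3; quasi-likelihood, filterByExpr, TMM, robust) in 1 fit over all 12 libraries and 15801 genes, with Benjamini-Hochberg adjustment over those genes, a call at adjusted p under 0.05, 8 residual degrees of freedom and 95% intervals. CPM values carry TMM factors. TPM was analysed as log2(TPM + 1) and log2(TPM + 0.1) with limma 3.58.1, where folds of low genes are understated. DESeq2 1.42.0, RLE factors, no factors, other filters and limits, the replicate block and leaving out each library were the alternatives. On simulated counts for Fes-/- against WT under PBS, 30 of 50 genes changed 1.5-fold and 34 of 50 changed 2-fold were called. In all, 168 genes were called there, 10 of them falsely. The simulation changed 50 genes at each of 1.5-, 2-, 4- and 8-fold, so that total reflects what was planted. It is no measure for the 13 of 15801 called in the measured comparison. The changed genes were drawn from all tested genes, including those of low count, so these rates do not give the power for the zinc-finger genes. Total counts of 61016254 to 101027166 set the depth, and p-values cover the spread between these libraries.

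The genes and lists were chosen with earlier results of these data known. Named genes were the 10 largest rises and falls of each LPS comparison, the 5 smallest p of each genotype comparison, the 10 highest mean TPM, those on chromosome 7 within 30 Mb of Fes, and the role lists. Of the partners of KRAB proteins, the 4 with the smallest p were named. Clusters, the ETS and YY1 motifs and the Zbtb, Zscan and Zkscan genes were added after the data had been seen. Protein patterns came from GENCODE coding translations, in place of the RefSeq proteins first planned. Deviations of same-numbered LPS and PBS libraries correlated at r = 0.262 to 0.398 within a genotype over 9495 genes, each best with its own number, and these were treated as pairs in the block.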

Additional observations from a re-analysis of the deposited data

How the results depend on the processing

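Without TMM factors, on log2(TPM + 1) and on log2(TPM + 0.1), 11 genes each were called higher in Fes-/- and 12 each in WT cells, against 37 in each with TMM. Signs turned under these 3 settings, in that order, for Zfp131 (Fes-/- -0.12, -0.15, -0.15; WT -0.034, -0.058, -0.061), Zfp143 (Fes-/- -0.29, -0.31, -0.33; WT -0.45, -0.45, -0.48), Zfp207 (Fes-/- -0.45, -0.48, -0.49; WT -0.36, -0.39, -0.39), Zfp592 (WT -0.86, -0.84, -0.89), Zfp593 (Fes-/- -0.59, -0.58, -0.63; WT -0.30, -0.31, -0.33), Zfp609 (Fes-/- -0.85, -0.81, -0.89; WT -0.53, -0.50, -0.54), Zfp710 (Fes-/- -0.67, -0.70, -0.70; WT -0.51, -0.53, -0.54) and Zfp961 (Fes-/- -0.32, -0.33, -0.36; WT -0.64, -0.62, -0.68). These settings leave the shift of all genes in place, and the share of all tested genes called under them was not counted. The cause of that shift was not tested.

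With no filter, 2 genes were called higher in Fes-/- against WT under LPS, Zfp703 (log2 0.46, adjusted p = 0.0016) and Zfp811 (0.41, 0.0299), and the cause was not tested. Leaving out 1 library gave 32 to 38 higher and 160 to 167 lower in Fes-/- cells, and 32 to 37 and 162 to 168 in WT cells. With the replicate block within genotype, 38 were higher and 167 lower in Fes-/- and 37 and 169 in WT cells; of the named calls it changed that of Zfp830 in WT cells. Across genotypes same-numbered libraries correlated at -0.539 to -0.131, so numbers were not taken as pairs there. The block over all libraries gave 37 and 166, and 36 and 164. DESeq2 gave 39 and 163 in Fes-/- and 39 and 164 in WT cells. Leaving out genes with shared or overlapped sequence, a choice made after seeing the data, gave 31 and 140, and 31 and 139. Counts near 0 under PBS limit the fold of Zfp811, and counts near 0 under LPS that of Zfp395.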

Other observations

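Numbered genes of related zinc-finger families were examined for the same LPS response. Of 33 numbered Zbtb genes, which join fingers to a BTB domain, 20 were lower (60.6%) and 8 higher (24.2%) in each genotype by edgeR, with median log2 changes of -0.48 in Fes-/- and -0.53 in WT cells. Of 14 numbered Zscan and Zkscan genes, which carry a SCAN domain, 11 were lower (78.6%) and 1 higher (7.14%) in each genotype, with medians of -0.93 in Fes-/- and -0.98 in WT cells. Over all tested genes, 38.9% were lower and 34.3% higher in Fes-/- and 38.8% and 34.6% in WT cells. These sets were picked after the data had been seen, and no test between the families was made.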
